A study of Mus musculus with 15 samples.

Results

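The cell cycle and proliferation genes described here are 36 genes that dividing cells use to copy and separate their chromosomes. They were chosen by gene symbol from the authors' table of all genes. The table held 35 of the 36 symbols, out of 14272 named genes and 14806 features, and Aurkb was the symbol without a match in it. The RNA came from quadriceps of male DBA/2J-mdx mice, which lack dystrophin and are used to study Duchenne muscular dystrophy, so the controls are dystrophic too. There were 15 RNA-seq libraries, 5 in each of 3 groups. Vehicle mice were injected with the solvent DMSO 7 times a week. Weekly mice were given 1 mg/kg of prednisone, a glucocorticoid drug, on 1 injection a week and vehicle on the other 6. Daily mice were given 1 mg/kg on all 7. Age is 6 months in the protocol and 7 months in the descriptions. Nothing in the labels ties each library to an animal of its own, and the spread behind every p-value may therefore be technical.

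A cell that divides loads the MCM helicase onto its DNA, copies the DNA with the sliding clamp PCNA and a supply of nucleotides, and then enters mitosis under cyclin-dependent kinases. Kinetochores and motor proteins align the chromosomes, the spindle checkpoint holds the cell until all are attached, and the anaphase-promoting complex and the central spindle separate the daughters. Mature muscle fibres do not divide. In dystrophic muscle the dividing cells are satellite cells, which rebuild damaged fibres, together with macrophages, fibroblasts and endothelial cells. In whole muscle RNA, fewer dividing cells and less RNA per dividing cell cannot be told apart.

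Many late cell cycle genes carry CCAAT boxes and a cell cycle homology region (CHR) just before their start, and many replication genes carry E2F sites. The 150 bases before the RefSeq start (GRCm38.p6) are shown for the proliferation marker Mki67, for topoisomerase Top2a, and for Cenpf and Bub1b, because these members are among those with the largest differences described below. They are written 5′ to 3′ along the gene's own strand, and capitals mark CCAAT or TTTGAA on either strand. Mki67 lies on the minus strand (stretch at chr7:135716380-135716529), as do Top2a (chr11:99024190-99024339) and Cenpf (chr1:189688087-189688236), and Bub1b lies on the plus strand (chr2:118598061-118598210).
Mki67: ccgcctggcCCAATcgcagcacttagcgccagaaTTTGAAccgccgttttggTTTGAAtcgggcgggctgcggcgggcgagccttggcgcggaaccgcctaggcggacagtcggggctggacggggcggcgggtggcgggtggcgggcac
Top2a: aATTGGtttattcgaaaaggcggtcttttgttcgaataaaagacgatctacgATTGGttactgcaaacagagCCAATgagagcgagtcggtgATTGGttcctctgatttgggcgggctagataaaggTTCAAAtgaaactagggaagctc
Cenpf: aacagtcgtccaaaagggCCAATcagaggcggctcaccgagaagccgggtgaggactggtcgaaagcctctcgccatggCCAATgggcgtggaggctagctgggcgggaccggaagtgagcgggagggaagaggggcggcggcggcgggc
Bub1b: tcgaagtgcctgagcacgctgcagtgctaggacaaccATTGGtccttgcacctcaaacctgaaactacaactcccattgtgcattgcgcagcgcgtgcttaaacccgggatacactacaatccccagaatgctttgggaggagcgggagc
The Mki67 stretch holds a CCAAT box and a pair of CHR matches, Top2a holds several CCAAT boxes and a CHR match, and Cenpf and Bub1b hold CCAAT boxes and no CHR match in these 150 bases. RefSeq promoters were matched for 31 of the 36 members, 34 promoters in all. In the 250 bases before the start, CCAAT was found on either strand in 29 of 34 member promoters (85.3%) and in 33.8% of 32851 promoters. TTTGAA was found in 12 of 34 (35.3%) against 16% of all promoters. It was in 11 of the 24 promoters of mitotic and chromosome genes and in 1 of the 10 promoters of replication genes. The E2F letters searched were TTTCCCGC, TTTCGCGC, TTTGCCGC and TTTGGCGC, and they were in 4 of 34 (11.8%) against 1.86% of all promoters. These matches describe letters in a window and are not measured binding sites.

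Depth, recovered from the deposited CPM values (reads per gene scaled to a common library total), ranged from 2780768 reads in weekly 4 to 11052552 in weekly 2, so that 3 reads equal 1.08 CPM in the shallowest library and 0.271 CPM in the deepest. Muscle identity was clear, with all 10 fibre markers in the table and creatine kinase Ckm at 3407 CPM or more in every library. The weekly 4 library stood apart from the other 14. The mitochondrial ribosomal RNA mt-Rnr2 made up 0.570% of its counts against 6.23% to 9.44% in weekly 1, 2, 3 and 5, and daily 3 had 20.6% of its counts in Gm26924. The vehicle libraries varied least, with a biological coefficient of variation of 3.55% over all genes tested, against 29.4% in weekly (16.9% without weekly 4) and 9.40% in daily. Pairs of vehicle libraries still differed by more than sampling noise, with a chi-square per degree of freedom of 1.5 to 2.02 over 10 pairs. For each member call on the deposited CPM scale that rests on the weekly libraries, the change is given with and without weekly 4.

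The members were expressed at low levels. Of the 35, 18 had at least 10 reads in every library and 17 fell under 10 reads in at least 1 library. Per kilobase of exon, the highest vehicle means were those of Ube2c (6.47 CPM per kb), the ubiquitin-conjugating enzyme of the anaphase-promoting complex, and of Pcna (4.14). Mcm7 (2.21), Tyms (2.07) and Tk1 (1.95) followed, Mki67 was at 1.31, and the checkpoint kinase Bub1 was lowest at 0.153 CPM per kb. Ccnb1, Plk1 and Bub1 did not reach the filter of 1 CPM in 5 libraries, which left 32 members in the test. Exons of 8 members overlap those of another protein-coding gene. The largest overlaps are on opposite strands, for Kif20a with Cdc23 (29.3% of exon bases) and for Ube2c with the troponin gene Tnnc2 (22.8%). The kit keeps the strand of each RNA, but no source used here tells whether the counting did, so the counts of these 8 genes (Kif20a, Ube2c, Ccna2, Prc1, Mcm7, Nusap1, Cdc20 and Tk1) are uncertain.

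With all 15 libraries, no member passed the test in any comparison (limma on log2(CPM + 0.5), Benjamini-Hochberg adjusted p under 0.05 over 14059 genes). In weekly against vehicle 0 of 32 members passed, while 8.06% of all genes did, 6.99% higher and 1.07% lower. At an unadjusted p under 0.05 there were 4 members. The share of all genes at that unadjusted mark was not counted, so such counts here and below cannot be compared with it. On the recovered reads edgeR and DESeq2 each called 1 member, Ube2c, as lower (-0.49 with edgeR), beside 11.3% and 13.5% of all genes in either direction. In daily against vehicle 0 of 32 passed, against 3.89% of all genes, 1.76% higher and 2.13% lower, with 3 members at an unadjusted p under 0.05. There edgeR and DESeq2 each called Mcm7 as higher (0.43 with edgeR), beside 9.48% and 11.4% of all genes. In daily against weekly 0 of 32 passed, against 8.73% of all genes, 0.484% higher and 8.24% lower, with 2 members at an unadjusted p under 0.05. There edgeR and DESeq2 each called Ube2c as higher (0.72 with edgeR), beside 5.31% and 7.59% of all genes. The median member change (log2 scale) was 0.22 in weekly against vehicle, beside 0.17 for all genes. It was 0.23 beside -0.08 in daily against vehicle, and 0.02 beside -0.24 in daily against weekly. Scaling with edgeR's TMM, which trims extreme ratios between libraries, brought the medians of all genes to 0.01, 0.00 and 0.01 and those of the members to 0.07, 0.29 and 0.22 in the same order. TMM also changed the split of all calls in weekly against vehicle to 5.72% higher and 4.22% lower, in daily against vehicle to 5.58% and 3.49%, and in daily against weekly to 2.08% and 2.64%. With TMM 0, 1 and 1 members passed, the last 2 being Mcm7 and Ube2c.

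The ranges of the groups overlapped for most members. Ranges here and below are of the deposited CPM, without TMM scaling. The TMM factor was 0.652 in daily 3, against 0.952 to 1.03 in the other daily libraries. TMM divides by this factor, so daily 3 lies lower on the deposited scale than after TMM, relative to the other libraries. In weekly, 4 members (Kif20a, Kif11, Pcna and Mcm7) were above every vehicle library, beside 11.8% of all genes, and 0 were below, beside 1.66%. Without weekly 4 the same 4 were above (16.1% of all genes) and 5 were below (Mcm5, Racgap1, Mki67, Anln and Bub1b), beside 3.17% of all genes. In daily, 1 member, Kif20a, was above every vehicle library (2.45% of all genes) and 0 were below (8.82%). Daily lay below every weekly library for Pcna alone (6.98% of all genes) and above for no member (0.235%). Without weekly 4, daily lay above weekly for 4 members (Racgap1, Cenpf, Ect2 and Bub1b), beside 0.583% of all genes, and below for Pcna, beside 11.5%.

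Member levels were highest in 1 weekly library. Weekly 4 was the highest of all 15 libraries for 31 of the 35 members, and for 37.9% of all genes tested. Its level was a median of 4.99 times the mean of the other 4 weekly libraries over the members, against 1.07 times over all genes. It was over 2-fold for 28 of 35 members, against 15.1% of all genes. For 20 members the exact 95% Poisson interval of the weekly 4 count, which covers counting error only, lay above the values of all 14 other libraries. For Pcna, Tyms, Ube2c and Nusap1 another library was the highest of the 15.

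**Figure D1:**
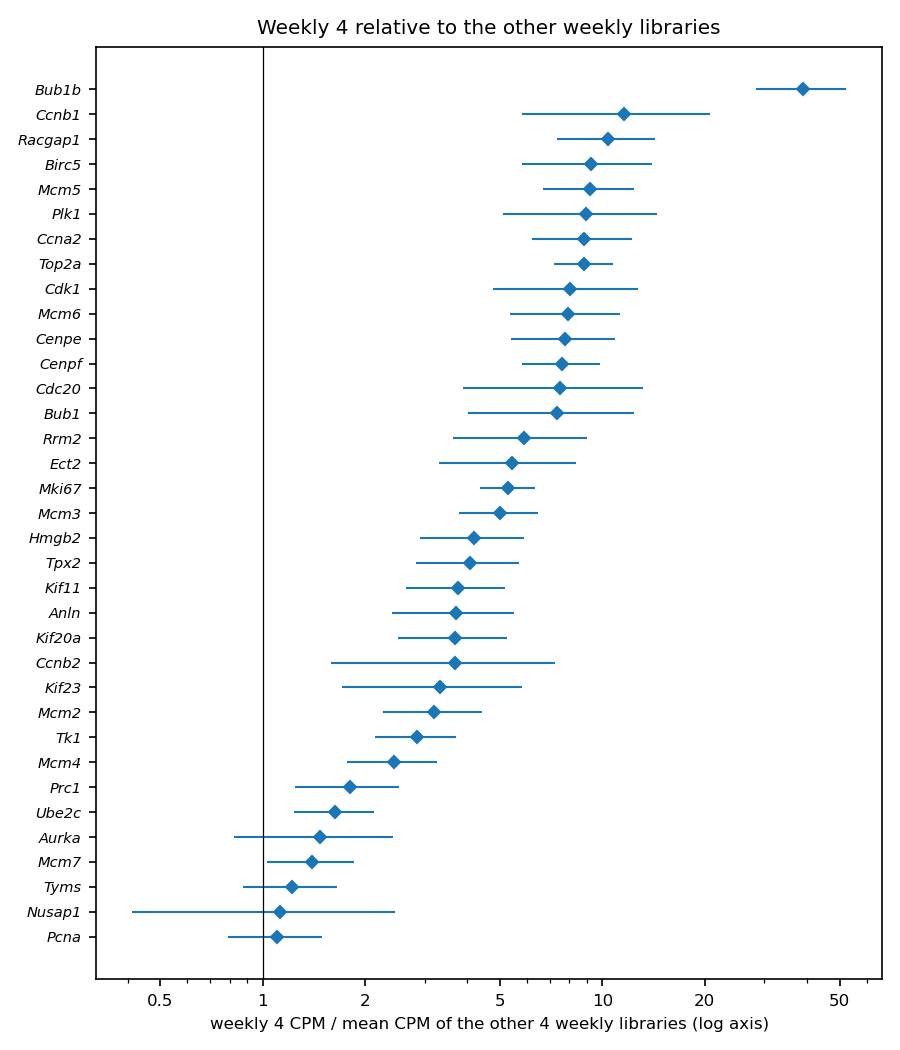
Level of each of the 35 members in weekly 4 divided by the mean of the other 4 weekly libraries, on a log axis. Diamonds are the ratios and lines the 95% Poisson interval of the weekly 4 count alone. Bub1b stands at 38.9 and Pcna at 1.1, and 28 members lie above 2.

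The excess in weekly 4 was seen in all 7 roles but to different degrees. Bub1b, which builds the spindle checkpoint complex, had 44 reads in weekly 4 (15.8 CPM, interval 11.5 to 21.2) and 4, 7, 2 and 2 reads in weekly 1, 2, 3 and 5. Its ratio of 38.9 was the highest of all 14059 genes tested. Cytokinesis regulator Racgap1 was at 10.4 times, the helicase subunit Mcm5 at 9.21 times and Top2a at 8.84 times the mean of the other weekly libraries. By role, the median ratio was 8.45 for mitotic cyclins and kinases, 7.52 for the spindle checkpoint, 5.29 for chromosome structure and 4.10 for the MCM helicase. It was 3.91 for kinetochore and spindle genes, 3.72 for central spindle genes and 2.03 for the clamp and nucleotide supply. Pcna (1.1), spindle protein Nusap1 (1.12), thymidylate synthase Tyms (1.22), Mcm7 (1.4) and Aurka (1.47) had the smallest ratios.

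Markers of other cell types moved with the members in this library. Of 10 macrophage markers 9 were in the table and 8 were over 2-fold in weekly 4, and they summed to 1684 CPM there. In weekly 1, 2, 3 and 5 the sums were 138, 301, 297 and 347 CPM. The vehicle range of that sum was 323 to 349 CPM and the daily range 196 to 435 CPM. The 10 fibroblast markers summed to 26706 CPM in weekly 4, but 5 of them were over 2-fold and the list did not move together. The collagens Col1a1 (7723 CPM), Col1a2 (6173 CPM) and Col3a1 (10610 CPM) made up most of that sum. Dcn (96.4 CPM), Lum (26.3 CPM) and Fap (13.7 CPM) lay within the range of the remaining weekly libraries. Tcf4 (71.9 CPM), a listed gene that is not specific to fibroblasts, lay below that range. The fibroblast sum was 2455 to 3739 CPM in the remaining weekly libraries, 2377 to 2638 CPM in vehicle and 2289 to 4237 CPM in daily. Of 10 satellite cell and new fibre markers 8 were in the table and 4 were over 2-fold. They summed to 847 CPM in weekly 4, with 220 to 279 CPM in the remaining weekly libraries. That sum was 206 to 220 CPM in vehicle and 155 to 339 CPM in daily. Most of the weekly 4 sum came from the myosins Myh3 (324 CPM) and Myh8 (357 CPM). Myod1 (35.6 CPM) and Chrna1 (28.4 CPM) lay within the range of the remaining weekly libraries, and Pax7, Myog, Cdh15 and Ncam1 lay above it. The sums of endothelial (346 CPM), adipocyte (1136 CPM) and erythroid markers (72.6 CPM) in weekly 4 were within the range of the remaining weekly libraries. Of the lymphocyte list 1 gene was in the table, Ptprc, which is not specific to lymphocytes. It was at 91.7 CPM in weekly 4, with a range of 18.6 to 49.7 in the remaining weekly libraries. No marker in the table was at 0 in any library. The macrophage marker Adgre1 and the muscle precursor markers Myf5 and Mymk had no match in it. The part of these cell types in the member levels was not tested.

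**Figure D2:**
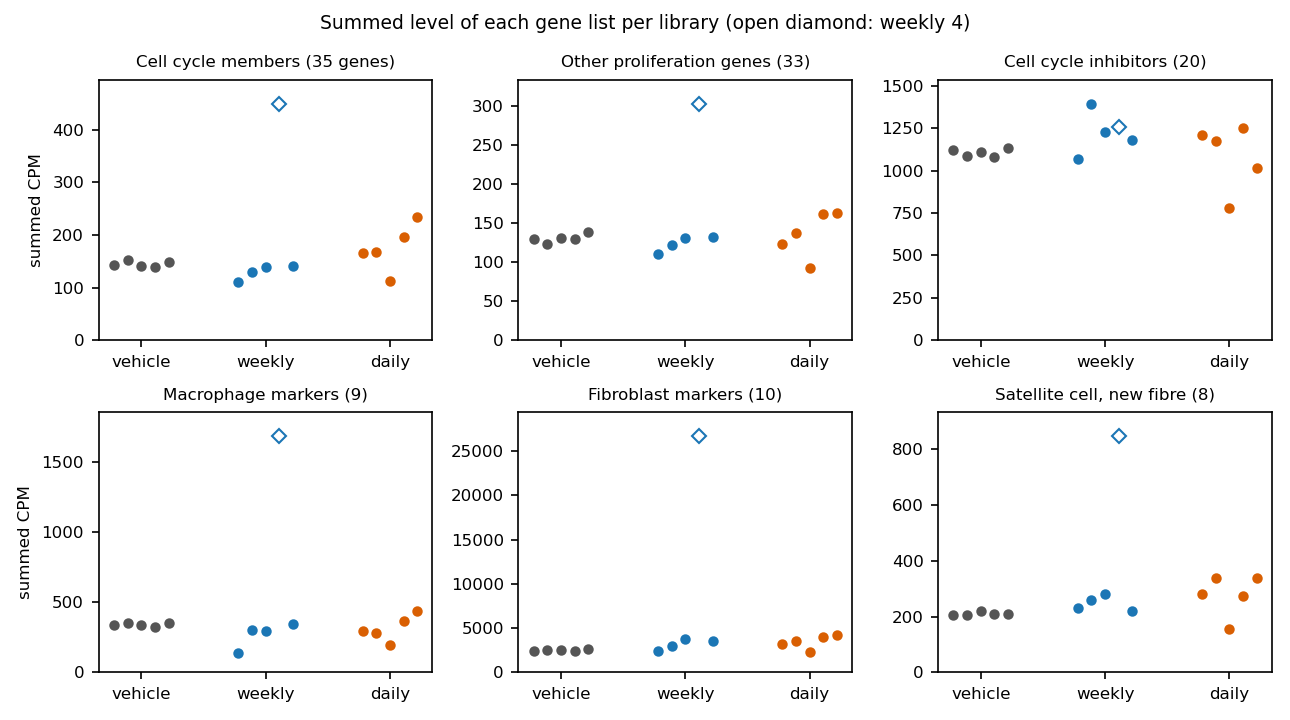
Summed CPM of 6 gene lists in each library, with 1 point per library and weekly 4 as an open diamond. The members sum to 450 CPM in weekly 4 and to 111 to 234 CPM elsewhere. The sums of the macrophage, fibroblast, and satellite cell and new fibre lists are also highest in weekly 4.

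Leaving weekly 4 out, 21 of the 32 tested members were lower in weekly than in vehicle and 27 were higher in daily than in vehicle. The sum over the 35 members was 144 ± 5.42 CPM in vehicle (SD, n = 5), 130 ± 14 in weekly (SD, n = 4; 194 ± 143 with weekly 4, n = 5) and 176 ± 44.5 in daily (SD, n = 5). In weekly against vehicle 3 of 32 members fell and 0 rose, while 1.81% of all genes fell and 9.31% rose (11.1% in all). In daily against vehicle 4 of 32 rose and 0 fell, beside 4.14% and 6.35% of all genes (10.5% in all). In daily against weekly 8 of 32 rose and 0 fell, beside 1.21% and 12.2% of all genes (13.4% in all). The median member change was -0.15 in weekly against vehicle, where that of all genes was 0.15. It was 0.23 beside -0.08 in daily against vehicle, and 0.38 beside -0.22 in daily against weekly. With weekly 4 kept, the changes of the 3 members that fell (Mki67, Bub1b and Mcm6) were -0.33, -0.06 and -0.25. For the 8 that rose in daily against weekly, the changes with weekly 4 kept were 0.64 for Bub1b, 0.72 for Cenpe, 0.63 for Mki67, 0.31 for Top2a, 0.35 for Cenpf, 0.30 for Racgap1, 0.52 for Anln and 0.43 for Ube2c. The calls in daily against vehicle came from the smaller spread once weekly 4 was out, since the changes themselves do not involve that library. The 3 comparisons share libraries, so their calls are not separate pieces of evidence. With the vehicle libraries averaged to 1 sample, which is then assumed to vary like the treated groups, both comparisons against vehicle had 0 calls (1 member each at an unadjusted p under 0.05) and daily against weekly kept 7. With TMM scaling and no weekly 4, 7 members fell in weekly against vehicle (adding Ube2c, Racgap1, Tk1 and Anln), beside 7.49% of all genes. Then 5 rose in daily against vehicle (adding Mcm7), beside 11.5% of all genes. In daily against weekly 13 rose (adding Rrm2, Tyms, Ect2, Prc1 and Hmgb2), beside 6.37% of all genes. Counts with edgeR without weekly 4 were 7, 6 and 13, beside 7.9%, 11.4% and 6.26% of all genes, and with DESeq2 6, 5 and 13, beside 7.81%, 10.7% and 6.14%.

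Cell type markers moved in the same fit without weekly 4. In weekly against vehicle 4 of 9 macrophage markers fell and 1 rose, with a median of -0.46 beside 0.15 for all genes, and 9 of 10 adipocyte markers rose, with a median of 1.37. Of the endothelial markers 2 of 10 rose, and of the satellite cell and new fibre markers 1 of 8 rose. Of the 10 fibroblast markers 1 rose and 1 fell, and 1 of 3 erythroid markers fell. Of all genes 9.31% rose and 1.81% fell. In daily against vehicle 4 of 9 macrophage markers fell and 1 rose (median -0.39), and 7 of 10 adipocyte markers fell (median -1.04). Of the 10 fibroblast markers 2 rose and 1 fell, and 1 of 8 satellite cell and new fibre markers rose. Of the endothelial markers 2 of 10 fell, of the erythroid markers 2 of 3 (median -1.43) and of the fibre markers 1 of 10. Of all genes 4.14% rose and 6.35% fell. In daily against weekly 9 of 10 adipocyte markers fell (median -2.34), 5 of 10 endothelial markers fell (median -0.49), and 2 of 9 macrophage markers rose and 1 fell (median 0.21, beside -0.22 for all genes). Of all genes 1.21% rose and 12.2% fell there. The other marker lists are not given for that comparison. The part of these shifts in the member changes was not tested.

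**Figure D3:**
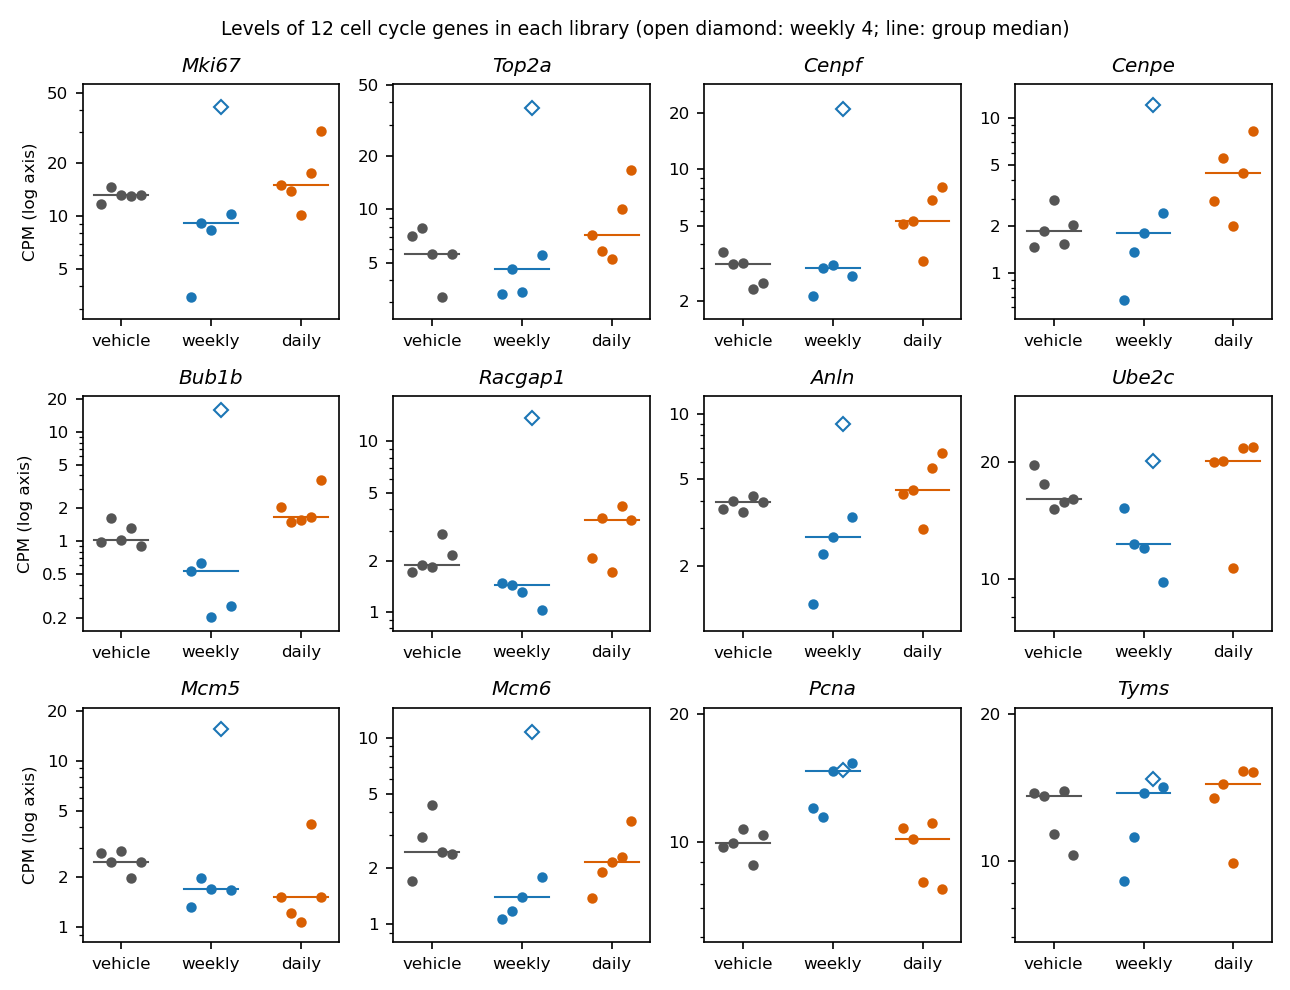
CPM of 12 members in each library on a log axis, with 1 point per library, a line at the group median and weekly 4 as an open diamond. Weekly 4 is the highest library for 9 of the 12 genes shown, Ube2c, Pcna and Tyms being the exceptions, and the other weekly libraries lie below every vehicle library for Mki67, Bub1b, Racgap1 and Anln.

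Of the 3 chromosome structure genes, Mki67 and Top2a passed without weekly 4 and Hmgb2 did not. Mki67 encodes the protein that coats mitotic chromosomes and is the usual mark of dividing cells. It measured 11.8, 14.7, 13.3, 13.1 and 13.2 CPM in the vehicle libraries, 3.47, 9.14, 8.36, 41.4 and 10.3 in weekly 1 to 5 and 15, 13.9, 10.2, 17.6 and 30.6 in daily 1 to 5. Every weekly library but the 4th was below every vehicle library, weekly 1 was lowest of all 15, and the daily libraries overlapped vehicle. Without weekly 4, Mki67 fell in weekly against vehicle, with a change of -0.82 (SE 0.22, limma adjusted p = 0.0105). That call ended without weekly 1 (-0.49, adjusted p = 0.0917). It rose in daily against weekly by 1.11 (SE 0.22, limma adjusted p = 0.000391), a call that held without each of the other 14 libraries in turn.

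Top2a, which untangles DNA strands before separation, was at 7.06, 7.84, 5.61, 3.21 and 5.65 CPM in vehicle, 3.34, 4.61, 3.42, 37.4 and 5.55 in weekly and 7.2, 5.84, 5.27, 10.05 and 16.6 in daily. Without weekly 4 the weekly and vehicle libraries overlapped (-0.40, SE 0.24, limma adjusted p = 0.309). It rose in daily against weekly (0.91, SE 0.24, limma adjusted p = 0.00798), where daily 5 was highest, and without daily 5 the change of 0.67 did not pass (adjusted p = 0.0545). Hmgb2, a chromatin protein of dividing cells, did not pass on the deposited scale, with 0.50 (SE 0.22, limma adjusted p = 0.117) in daily against weekly without weekly 4 (0.12 with it). Its weekly libraries were at 3.2, 1.99, 3.22, 12.2 and 3.22 CPM, weekly 4 again the highest.

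Of 5 checkpoint and anaphase genes, Bub1b and Ube2c passed without weekly 4. Bub1b measured 0.974, 1.64, 1.03, 1.33 and 0.904 CPM in vehicle, 0.534, 0.633, 0.201, 15.8 and 0.258 in weekly and 2.08, 1.49, 1.55, 1.67 and 3.6 in daily. Leaving weekly 4 aside, all weekly libraries were below all vehicle and all daily libraries, at 2 to 7 reads each. The fall in weekly against vehicle was -0.90 (SE 0.28, limma adjusted p = 0.0258), and it ended without vehicle 2, vehicle 4, weekly 3 or weekly 5. The rise in daily against weekly was the largest of the 32 members, 1.48 (SE 0.28, limma adjusted p = 0.000134), and it held without each of the other 14 libraries. With weekly 4 included the same comparison gave 0.64 (SE 0.57, limma adjusted p = 0.471).

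Ube2c, the best expressed member per kilobase, was at 19.6, 17.6, 15.1, 15.8 and 16.1 CPM in vehicle, 15.2, 12.3, 12, 20.1 and 9.8 in weekly and 19.9, 20.1, 10.7, 21.8 and 21.9 in daily. On the deposited scale, where daily 3 had a TMM factor of 0.652, daily 3 was below every vehicle library. The other daily libraries were above them. It rose in daily against weekly without weekly 4 (0.57, SE 0.18, limma adjusted p = 0.0267), a call that ended without weekly 3, weekly 5, daily 1, daily 4 or daily 5. Tnnc2, whose exons it overlaps on the other strand, was at 482 to 700 CPM in daily and 607 to 1001 CPM in weekly, which overlap, and at 872 to 921 CPM in vehicle. The remaining checkpoint genes were at few reads. The anaphase activator Cdc20 had 2 to 20 reads per library, survivin Birc5 2 to 22 and Bub1 2 to 20. Cdc20 and Birc5 did not pass, at 0.68 (SE 0.34, limma adjusted p = 0.170) and 0.38 (SE 0.31, limma adjusted p = 0.413) in daily against weekly without weekly 4. With weekly 4 these changes were 0.22 and -0.17.

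Of 6 kinetochore, spindle and motor genes, Cenpf and Cenpe passed without weekly 4 in daily against both groups, and Kif20a in daily against vehicle. Cenpf, a large kinetochore protein, measured 3.65, 3.16, 3.21, 2.32 and 2.49 CPM in vehicle, 2.14, 2.99, 3.12, 20.9 and 2.71 in weekly and 5.12, 5.3, 3.25, 6.91 and 8.04 in daily. Its daily libraries lay above the weekly libraries other than weekly 4, and daily 3 alone fell within the vehicle range on the deposited scale. Without weekly 4, Cenpf rose in daily against vehicle by 0.81 (SE 0.21, limma adjusted p = 0.00804) and against weekly by 0.90 (SE 0.22, limma adjusted p = 0.00459), and both calls held without each of the other 14 libraries. Cenpe, the motor that carries chromosomes to the spindle centre, was at 1.46, 1.87, 2.98, 1.55 and 2.03 CPM in vehicle, 0.667, 1.36, 1.81, 12.2 and 2.45 in weekly and 2.91, 5.57, 2.01, 4.39 and 8.31 in daily. Daily 1 and 3 fell within the vehicle range and daily 5 was the highest daily library. Without weekly 4 it rose by 0.95 (SE 0.27, limma adjusted p = 0.0143) against vehicle, which ended without daily 2 or daily 5, and by 1.25 (SE 0.28, limma adjusted p = 0.00159) against weekly, which held without each of the other 14 libraries.

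Kif20a, a motor needed for cytokinesis, was above vehicle in both treated groups. Its values were 1.83, 2.46, 1.95, 1.77 and 2.15 CPM in vehicle, 2.8, 3.35, 3.12, 11.1 and 2.84 in weekly and 3.74, 2.99, 3.41, 3.14 and 3.46 in daily, with no overlap between vehicle and either treated group. Cdc23, which overlaps it on the other strand, was at 17.3 to 19.1 CPM in weekly, 14.3 to 17.03 in daily and 12.6 to 17.1 in vehicle. With all 15 libraries the changes were 0.83 (SE 0.27, limma adjusted p = 0.0632) and 0.61 (SE 0.27, limma adjusted p = 0.263). Without weekly 4 it rose in daily against vehicle (0.61, SE 0.20, limma adjusted p = 0.0422), but that call ended without any 1 of the vehicle libraries, weekly 2 or 3, or daily 1, 4 or 5. Kif11, the motor that pushes spindle poles apart, was also above vehicle in every weekly library, at 3.02 to 4.07 CPM without weekly 4 against 1.83 to 2.99 CPM. Its change was 0.76 (SE 0.31, limma adjusted p = 0.131) with weekly 4 and 0.41 (SE 0.23, limma adjusted p = 0.279) without it. Tpx2, which nucleates spindle microtubules, and Nusap1 did not pass, with changes in daily against vehicle without weekly 4 of 0.44 (SE 0.22, limma adjusted p = 0.212) and -0.15 (SE 0.26, limma adjusted p = 0.763).

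Of 5 central spindle and cytokinesis genes, Racgap1, Anln and Ect2 passed in a comparison with daily. Racgap1, part of the complex that marks the cleavage plane, was at 1.7, 1.87, 1.83, 2.88 and 2.15 CPM in vehicle, 1.47, 1.45, 1.31, 13.7 and 1.03 in weekly and 2.08, 3.53, 1.7, 4.19 and 3.46 in daily. Anln, the anillin that scaffolds the contractile ring, was at 3.65, 3.98, 3.55, 4.2 and 3.96 CPM in vehicle, 1.33, 2.26, 2.72, 8.99 and 3.35 in weekly and 4.29, 4.48, 2.94, 5.65 and 6.65 in daily. For both genes the weekly libraries other than weekly 4 were all below vehicle, without a call on the deposited scale (-0.50, SE 0.25, limma adjusted p = 0.202 and -0.63, SE 0.23, limma adjusted p = 0.0637). Both rose in daily against weekly without weekly 4, Racgap1 by 0.89 (SE 0.25, limma adjusted p = 0.0113) and Anln by 0.87 (SE 0.23, limma adjusted p = 0.00698), and both calls held without each of the other 14 libraries.

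Ect2, the exchange factor that starts furrowing, measured 0.487, 0.936, 2.06, 1.66 and 0.678 CPM in vehicle, 1.07, 1.72, 1.11, 7.19 and 1.42 in weekly and 1.94, 2.17, 1.86, 2.72 and 3.19 in daily. Daily 1 and 3 fell within the vehicle range. Without weekly 4 it rose in daily against vehicle (0.86, SE 0.26, limma adjusted p = 0.0214), which ended without vehicle 1, 2 or 5 and without daily 4 or 5. All daily libraries lay above the weekly libraries other than weekly 4. The microtubule bundler Prc1 and the motor Kif23 did not pass on the deposited scale, at 0.22 (SE 0.19, limma adjusted p = 0.437) and 0.38 (SE 0.30, limma adjusted p = 0.394) in daily against weekly without weekly 4. With weekly 4 these changes were 0.05 and 0.07.

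Of the 6 MCM helicase subunits, 1 passed on the deposited scale. Mcm6 fell in weekly against vehicle without weekly 4, from 1.7, 2.93, 4.35, 2.43 and 2.37 CPM to 1.07, 1.18, 1.41 and 1.81 in weekly 1, 2, 3 and 5, with a change of -0.77 (SE 0.25, limma adjusted p = 0.0394). The groups overlapped, and the call ended without any 1 of vehicle 2 to 5 or weekly 1 to 3. Mcm5 was below vehicle in all 4 weekly libraries, at 1.33, 1.99, 1.71 and 1.68 CPM against 2.8, 2.46, 2.86, 1.99 and 2.49 CPM, with weekly 2 and vehicle 4 nearly level, and did not pass (-0.47, SE 0.26, limma adjusted p = 0.264). Mcm7 lay the other way, at 11.6, 11.8, 13.7, 17.3 and 12.3 CPM in weekly against 10.2, 9.83, 8.59, 10.2 and 10.1 CPM in vehicle, with no overlap and no call in all 15 libraries (0.41, SE 0.17, limma adjusted p = 0.141) or without weekly 4 (0.32, SE 0.17, limma adjusted p = 0.249). In daily Mcm7 was at 13.6, 14.1, 7.9, 13 and 14.1 CPM, and daily 3 alone was not above every vehicle library. Its change in daily against vehicle with all libraries was 0.32 (SE 0.17, limma adjusted p = 0.369). That comparison passed in 10 of 32 alternatives, among them TMM scaling, edgeR and DESeq2. Mcm2, Mcm3 and Mcm4 did not pass. Without weekly 4 the change of Mcm3 was 0.07 in weekly and 0.17 in daily against vehicle, that of Mcm4 0.07 and 0.01, and that of Mcm2 0.01 and 0.11.

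Among the clamp and nucleotide genes none passed on the deposited scale. Pcna measured 9.74, 9.95, 10.8, 8.85 and 10.4 CPM in vehicle, 12, 11.5, 14.7, 14.7 and 15.3 in weekly and 10.8, 10.2, 8.05, 11.1 and 7.76 in daily. On the deposited scale, without TMM factors, every weekly library was therefore above every vehicle and every daily library. Weekly 4 lay within the range of the other weekly libraries for this gene. The change was 0.43 (SE 0.16, limma adjusted p = 0.0874) in weekly against vehicle and -0.50 (SE 0.16, limma adjusted p = 0.0505) in daily against weekly, neither below the threshold. Without weekly 4 these changes were 0.40 (SE 0.17, limma adjusted p = 0.122) and -0.47 (SE 0.17, limma adjusted p = 0.0571). With TMM scaling the daily against weekly change was -0.24. It passed in 7 of 32 alternatives, with adjusted p from 0.00616 to 0.318. Thymidine kinase Tk1 (-0.54, SE 0.21, limma adjusted p = 0.0848 in weekly against vehicle without weekly 4), the ribonucleotide reductase subunit Rrm2 (0.68, SE 0.27, limma adjusted p = 0.0886 in daily against weekly without it) and Tyms (0.18, SE 0.17, limma adjusted p = 0.496 in that same comparison) did not pass either.

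None of the mitotic cyclins and kinases passed. Cdk1, the kinase that drives mitosis, had 2 to 29 reads per library and measured 1.1, 1.17, 1.72, 0.664 and 1.36 CPM in vehicle, 0.667, 0.452, 0.805, 6.47 and 1.29 in weekly and 1.11, 0.815, 0.31, 2.09 and 4.02 in daily. Weekly 4 was highest, daily 5 came next, and the groups overlapped. The change in daily against weekly was 0.52 (SE 0.33, limma adjusted p = 0.275) without weekly 4, with a 95% interval of -0.14 to 1.18. Partner cyclins of Cdk1, Ccna2 and Ccnb2, had values of 0.42 (0.297) and 0.31 (0.502) in the same comparison, with limma adjusted p in parentheses, and Aurora kinase Aurka of 0.01 (0.987). Ccnb1 had 2 to 17 reads and Plk1 1 to 16 reads, and both were highest in weekly 4 in CPM, at 3.96 CPM from 11 reads and 5.75 CPM from 16 reads. At this depth small differences in these genes were not detectable.

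**Figure D4:**
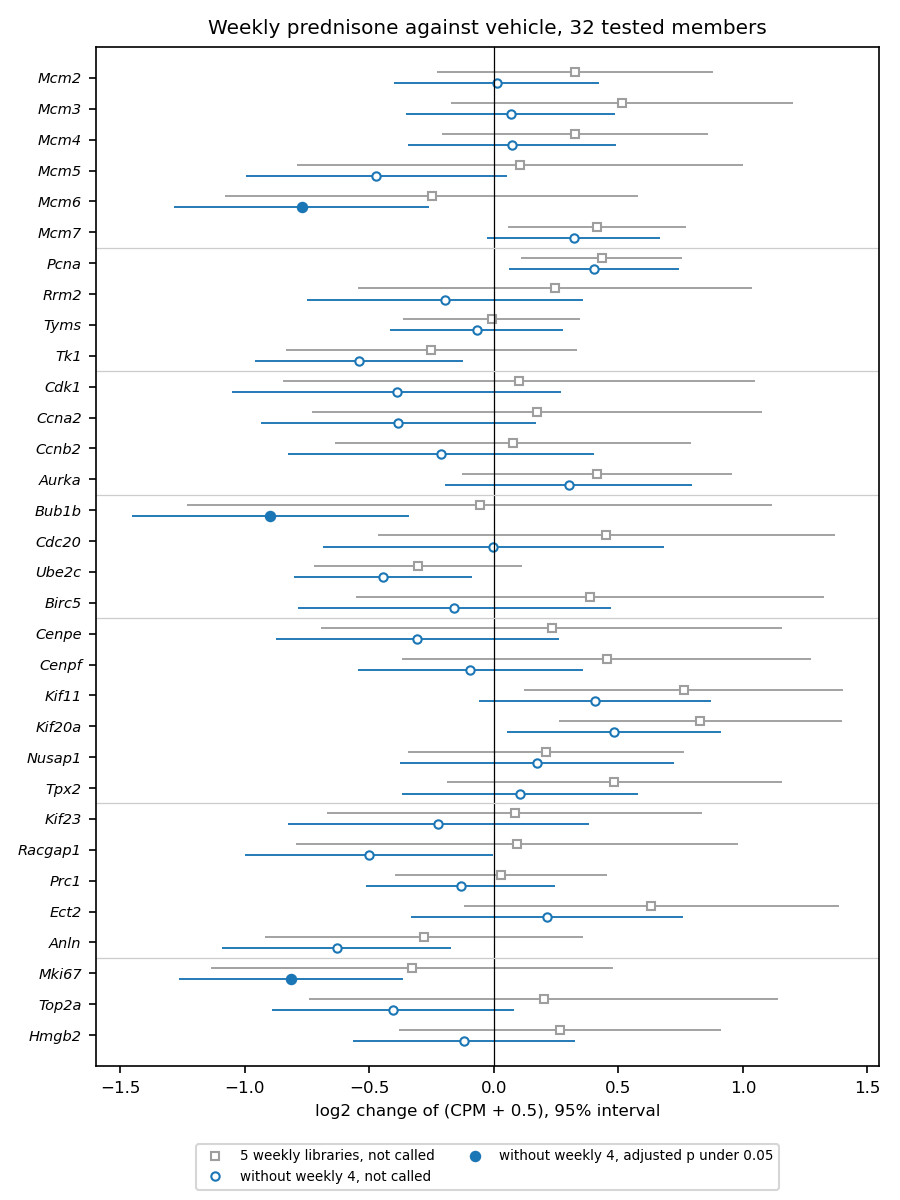
Log2 change of CPM + 0.5 in weekly against vehicle for the 32 tested members, ordered by role, with 95% intervals from limma. Squares are the fit of all 15 libraries, where none passed, and circles the fit without weekly 4, where filled circles mark Mcm6, Bub1b and Mki67.

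**Figure D5:**
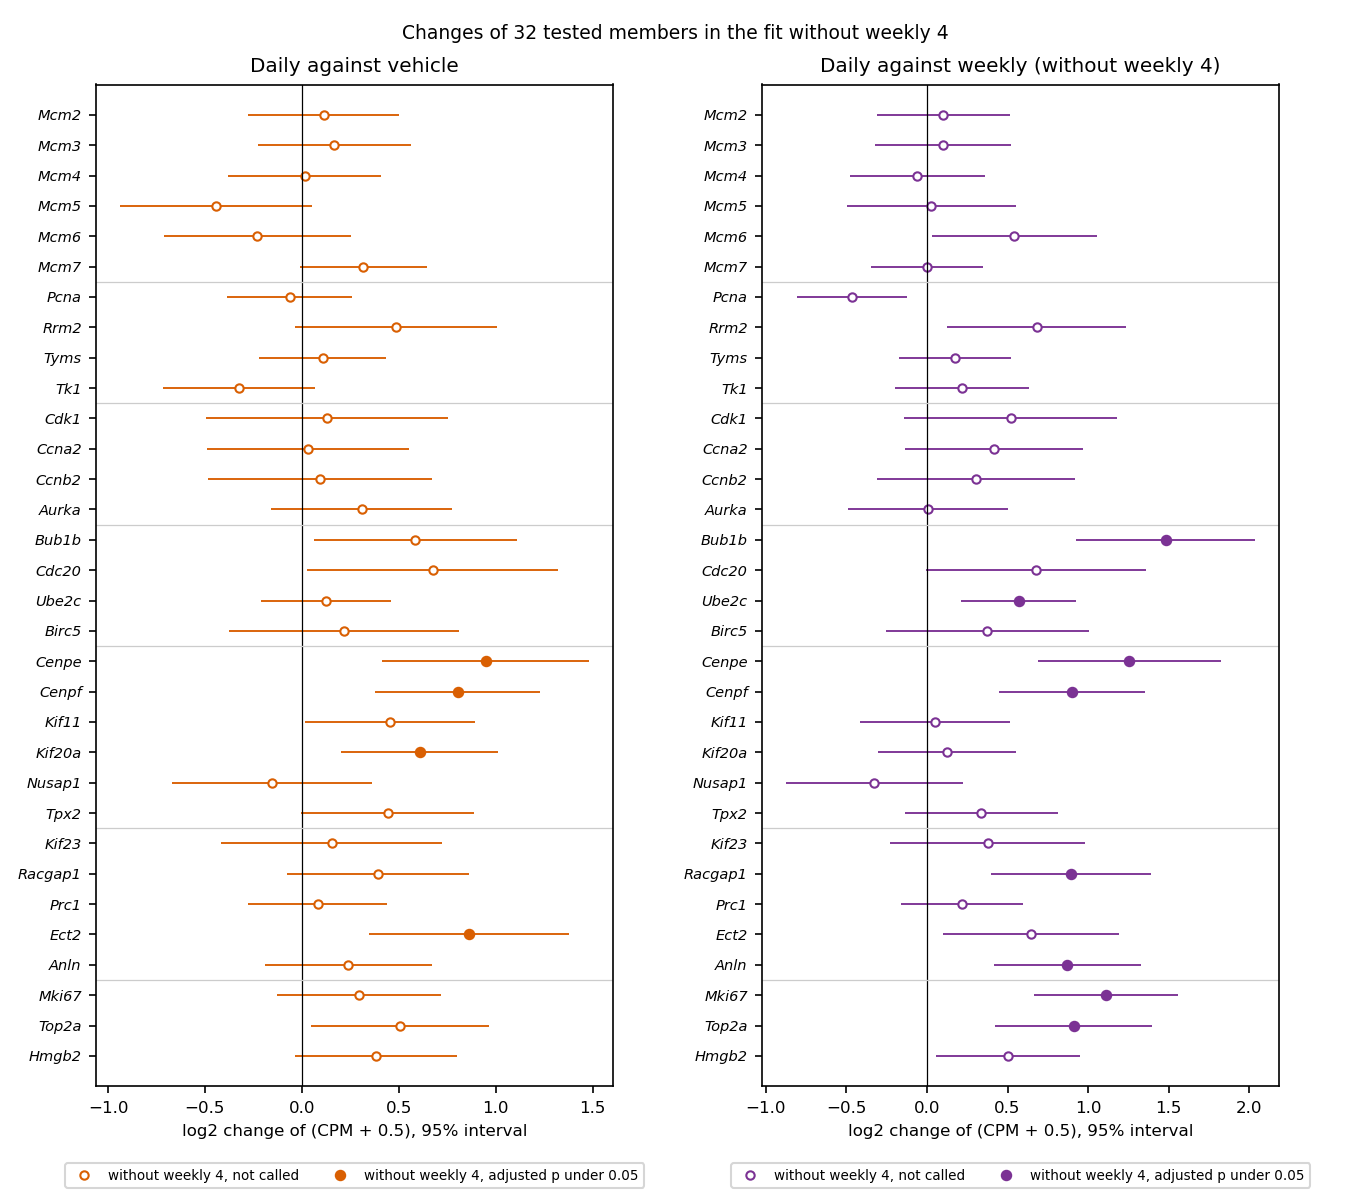
Log2 change of CPM + 0.5 in daily compared with vehicle (left) and with weekly (right) for the 32 tested members in the fit without weekly 4, with 95% limma intervals. Filled circles mark the 4 members called against vehicle and the 8 called against weekly, all to the right of 0.

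The treated libraries also differed among themselves. Among weekly libraries, weekly 1 was the lowest for 20 of the 35 members, against 30.7% of all genes. Daily 5 was the highest daily library for 21 of 35 members, against 16.8% of all genes, and daily 3 was the lowest for 24 of 35, against 84.1% of all genes. In weekly 1 the macrophage markers summed to 138 CPM, the lowest of the 15 libraries, and in daily 5 to 435 CPM, the highest after weekly 4. The embryonic myosin Myh3, a mark of newly formed fibres, was at 33.2, 42.9, 55.1, 324 and 53.5 CPM in weekly, 78.9, 118, 37, 81.4 and 129 in daily and 30.9 to 35.1 in vehicle. The 8 tested markers of its list did not all follow it. With all libraries 5 were higher and 3 lower in daily against vehicle, with 0 calls. In weekly against vehicle 7 were higher and 1 lower, with 1 call. Whether these cell types account for any of the member differences was not tested.

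Further lists of cell cycle genes were read in the same fits. Of 45 other proliferation genes 29 were tested and 0 passed limma in each comparison with all libraries, with 0, 0 and 3 at an unadjusted p under 0.05. Their median changes were 0.07, 0.06 and -0.02, beside the 0.17, -0.08 and -0.24 of all genes. Without weekly 4, 4 of the 29 rose in daily against weekly, beside 1.21% of all genes, and with TMM scaling as well 9 rose, beside 6.37%. The 4 were the condensin subunit Ncapg (1.14, SE 0.29, limma adjusted p = 0.00622), the motor Kif15 (1.11, SE 0.27, limma adjusted p = 0.00354), the spindle protein Dlgap5 (1.01, SE 0.30, limma adjusted p = 0.0207) and the centromeric histone Cenpa (0.75, SE 0.25, limma adjusted p = 0.0361), which are named after their values were seen. In weekly 4 these genes were at 2.52, 2.52, 5.39 and 12.2 CPM, the highest weekly value of each. The remaining weekly libraries were at 0.133 to 1.42, 0.645 to 1.47, 0.129 to 0.705 and 1.07 to 2.45 CPM. The changes with weekly 4 kept are not given here. Dlgap5 reached the filter level of 1 CPM only in vehicle 2, weekly 4 and daily 2 to 5, so it entered the test mainly through the group where it was high.

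Among 22 tested G1 cyclins, kinases and E2F regulators, 1 rose in weekly against vehicle, the growth transcription factor Myc, beside 6.99% of all genes. It was at 4.38, 6.2, 4.46, 5.75 and 4.97 CPM in vehicle, 9.88, 12, 25.2, 27.3 and 22.7 in weekly and 14.4, 14.8, 7.59, 12.8 and 16.6 in daily, without overlap between vehicle and the treated groups. Its change was 1.72 (SE 0.25, limma adjusted p = 0.000190) in weekly and 1.25 (SE 0.25, limma adjusted p = 0.00494) in daily against vehicle. In daily against vehicle E2f8, a repressor of E2F targets, also rose (0.94, SE 0.26, limma adjusted p = 0.0415), a call that ended without any 1 vehicle library or daily 1, 2, 4 or 5. Cyclin Ccnd2 fell, from 25, 31.4, 30.6, 30.2 and 31.8 CPM in vehicle to 22, 19.7, 13, 15.3 and 16.1 in daily (-0.79, SE 0.16, limma adjusted p = 0.00613). In daily against weekly Ccnd2 (-0.82, SE 0.16, limma adjusted p = 0.00429), its partner kinase Cdk4 (-0.71, SE 0.21, limma adjusted p = 0.0356) and Ccnd1 (-0.87, SE 0.24, limma adjusted p = 0.0286) fell. Under TMM scaling the calls of Cdk4 and Ccnd1 ended. Without daily 3 or weekly 5 both ended too, and without weekly 3, daily 2 or daily 5 that of Cdk4 ended. Without weekly 4 all these calls were made again, with changes of 1.57 for Myc in weekly against vehicle, and of -0.79 for Ccnd2, -0.47 for Cdk4 and -0.63 for Ccnd1 in daily against weekly. E2f8 then also rose in daily against weekly (0.88, SE 0.25, limma adjusted p = 0.0142). It was at 3.24 CPM in weekly 4, 1.01 to 2.06 in the remaining weekly libraries and 2.48 to 4.99 in daily. Lin9, a subunit of the DREAM complex and named after its values were seen, then also fell in daily against vehicle (-0.74, SE 0.21, limma adjusted p = 0.0129).

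With all libraries, inhibitors of the cycle had the most calls of these lists in both comparisons against vehicle. In daily against weekly 1 inhibitor fell, beside 3 of the 22 G1 genes and 8.24% of all genes. Of 20 inhibitors tested, 6 rose and 1 fell in weekly against vehicle, beside 6.99% and 1.07% of all genes. In daily against vehicle 3 rose and 1 fell, beside 1.76% and 2.13%. The counts were the same without weekly 4, beside 9.31% and 1.81% of all genes in weekly and 4.14% and 6.35% in daily. Gadd45g, a stress-induced growth arrest gene, was at 8.4, 4.8, 8.24, 8.07 and 7.69 CPM in vehicle, 25.8, 23.9, 37, 114 and 32.8 in weekly and 37.9, 40.9, 26.2, 45.2 and 35.5 in daily, with changes of 2.33 (SE 0.30, limma adjusted p = 3.93e-05) and 2.25 (SE 0.30, limma adjusted p = 7.71e-05). The CDK inhibitor p21, Cdkn1a, was at 19.8, 21.3, 19.5, 19.6 and 20.2 CPM in vehicle, 42.2, 35.1, 49, 122 and 55.1 in weekly and 64.8, 61, 37.2, 63.4 and 58.3 in daily, with changes of 1.42 (SE 0.23, limma adjusted p = 0.000561) and 1.45 (SE 0.23, limma adjusted p = 0.000629). The antiproliferative gene Btg2 rose by 1.68 (SE 0.21, limma adjusted p = 3.97e-05) and 1.41 (SE 0.21, limma adjusted p = 0.000360). The weekly calls also included Gadd45b (0.79, SE 0.21, limma adjusted p = 0.0233) and the CDK inhibitor p57, Cdkn1c (0.81, SE 0.22, limma adjusted p = 0.0285), both named after their values were seen. Without weekly 4 the weekly changes were 1.94 for Gadd45g, 1.14 for Cdkn1a, 1.58 for Btg2, 0.55 for Gadd45b and 0.60 for Cdkn1c, and all passed limma. For Gadd45g, Cdkn1a and Btg2 every treated library was above every vehicle library.

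The CDK4 and CDK6 inhibitor p18, Cdkn2c, differed between the regimens. It was at 5.23, 6.79, 6.53, 5.09 and 5.88 CPM in vehicle, 9.74, 10.5, 13.5, 11.9 and 16.6 in weekly and 5.4, 3.94, 3.25, 4.81 and 6.79 in daily. All weekly libraries were above all others, and it rose in weekly against vehicle (1.00, SE 0.20, limma adjusted p = 0.00282) and fell in daily against weekly (-1.29, SE 0.20, limma adjusted p = 0.000517), the 1 inhibitor called there. Gas1, a growth arrest gene of quiescent cells, fell in both treated groups, with changes of -0.98 (SE 0.23, limma adjusted p = 0.0103) and -0.96 (SE 0.23, limma adjusted p = 0.0167). It was at 31.9, 38.9, 34.5, 34 and 37.6 CPM in vehicle, 15.2, 15.6, 13.2, 37.8 and 14.3 in weekly and 17, 22.4, 11.3, 18.8 and 22.2 in daily, so weekly 4 alone was within the vehicle range. Without weekly 4 the weekly change of Gas1 was -1.25 (SE 0.16, limma adjusted p = 1.6e-07), and Cdkn2c changed by 1.01 (SE 0.20, limma adjusted p = 0.000284) and -1.30 (SE 0.20, limma adjusted p = 4.4e-06). The daily call of Gas1 ended without vehicle 2 or vehicle 5. With the vehicle libraries averaged to 1 sample, which is then assumed to vary like the treated groups, none of these inhibitor, Myc, E2f8 and Ccnd2 calls against vehicle remained, while the changes were about as large (2.30 for Gadd45g, 1.67 for Btg2 and 1.71 for Myc in weekly).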

How the data were processed

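Quadriceps RNA of 15 libraries was sequenced with a stranded total RNA kit, per the labels' protocols. Per the submitters' processing notes, the tools were TopHat2 2.1.0, HTSeq and edgeR, with genome build mm10. The authors deposited 1 table, which the labels call RPKM. The deposited values are CPM: dividing each of the 222090 values by the step of its library gave a whole read count (100%, within 0.01 reads), for genes of any length. Of 14806 features, 534 without a gene name (0.276% to 0.447% of counts) were left out, and 21 symbols had become calendar dates. Depth was 2780768 to 11052552 reads, and 3 reads is taken as the level below which a single value carries little information. Intervals cover counting error only.

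The test was limma 3.58.1 (R 4.3.3, mean-variance trend) on log2(CPM + 0.5), fitting all 15 libraries by group alone. Genes needed 1 CPM in 5 libraries, which kept 14059 genes, and p-values were Benjamini-Hochberg adjusted over all of them. A fold change on this scale understates changes of low genes. The plan assumed RPKM and was applied to CPM unchanged. Alternatives were TMM and quantile scaling, pseudocounts, filters, library weights, edgeR 4.0.16 and DESeq2 1.42.0 on the recovered reads, a replicate block, averaged vehicle libraries, and each library left out. The fit without weekly 4 was planned, and its own alternatives were added after the data were seen. The limma test was also run on simulated data, whose outcome is not given here. Changes were placed only in genes above a minimum mean level, and no outlying library was simulated. That run therefore does not cover the lowest members or a library like weekly 4. Named genes were all members in the table and, from each of 3 further lists, up to 4 called genes with the smallest adjusted p per comparison. Gene positions and exon lengths came from GENCODE M21 (GRCm38). The members and lists were chosen with earlier results of these data known.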

Additional observations from a re-analysis of the deposited data

Results flagged for a closer look

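In 33 of 105 sets (35 members in 3 groups of 5 libraries), 1 library lay so far from the other 4 that its gap to the nearest exceeded 0.71 of the whole range (Dixon's 95% value). Chance alone gives about 1 in 20 sets, and libraries shared by many genes give them together. Weekly 4 was that library in 26 sets, always as the highest. Among replication genes it measured 13.3 CPM for Mcm2, 20.9 for Mcm3, 15.5 for Mcm5, 10.8 for Mcm6, 7.55 for Rrm2 and 19.4 for Tk1. Among mitotic cyclins and kinases it measured 6.47 CPM for Cdk1, 12.9 for Ccna2, 3.96 for Ccnb1 and 5.75 for Plk1. Among checkpoint genes it measured 5.03 CPM for Bub1, 15.8 for Bub1b, 4.32 for Cdc20 and 7.91 for Birc5. Among kinetochore and spindle genes it measured 12.2 CPM for Cenpe, 20.9 for Cenpf, 13.3 for Kif11, 11.1 for Kif20a and 12.2 for Tpx2. Among cytokinesis and chromosome genes it measured 13.7 CPM for Racgap1, 12.2 for Prc1, 7.19 for Ect2, 8.99 for Anln, 41.4 for Mki67, 37.4 for Top2a and 12.2 for Hmgb2.

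The other 7 sets involved 5 libraries. Vehicle 3 was lowest for Mcm7 (8.59 CPM) and highest for Bub1 (1.83 CPM), and vehicle 5 was highest for Birc5 (1.70 CPM). Daily 4 was highest for Mcm5 (4.19 CPM), daily 5 was highest for Bub1b (3.60 CPM), and daily 3 was lowest for Mcm7 (7.90 CPM) and Ube2c (10.7 CPM). The source of these values was not tested.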

How the results depend on the processing

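Against the 0 member calls with all libraries, weekly against vehicle gave 1 with quantile normalization, edgeR, DESeq2 or only the 2 groups compared, 10 with library weights and 7 with TMM and no weekly 4. Leaving out 1 library gave 0 to 3 (3 without weekly 4, 2 without daily 3, 1 without weekly 1), and leaving out both weekly 4 and daily 3 gave 9, or 7 with TMM. Daily against vehicle gave 1 with TMM, quantile normalization, edgeR, DESeq2 or TMM without daily 3, 6 with library weights, 3 with only the 2 groups compared and 5 with TMM and no weekly 4. Leaving out 1 library gave 0 to 4 (4 without weekly 4, 1 without daily 3), and leaving out both weekly 4 and daily 3 gave 5, also with TMM. Daily against weekly gave 1 with TMM, quantile normalization, a pseudocount of 0.1, a filter at 2 CPM, edgeR, DESeq2 or TMM without daily 3, 10 with library weights and 13 with TMM and no weekly 4. Leaving out 1 library gave 0 to 8 (8 without weekly 4, 1 without weekly 1, weekly 2, daily 3 or daily 4), leaving out both gave 10 (11 with TMM), and no weekly 4 with averaged vehicle gave 7. In the fit without weekly 4, the 3 calls of weekly against vehicle became 7 with TMM or edgeR, 6 with quantile normalization or DESeq2, 10 with library weights, 8 with only the 2 groups and 0 with averaged vehicle, and 1 to 9 when 1 more library was left out (9 without daily 3, 1 without vehicle 2, vehicle 4 or weekly 3, 2 without vehicle 3, vehicle 5, weekly 1 or weekly 2). The 4 calls of daily against vehicle became 7 with library weights, 0 with averaged vehicle and 1 to 5 when 1 more library was left out (1 without daily 5, 2 without vehicle 1, vehicle 2 or vehicle 5). The 8 calls of daily against weekly became 13 with TMM, edgeR or DESeq2 and 6 to 10 when 1 more library was left out. Shares of all genes for the fits with TMM, edgeR and DESeq2, and for the fit without weekly 4, are given in the Results. They were not counted for the remaining settings of this section. The member counts of those settings therefore cannot be compared with all genes. The cause of these shifts was not tested. Among single genes 5 values changed sign as calls, all with TMM and no weekly 4: Racgap1 in weekly against vehicle (-0.61, and -0.62 also without daily 3), Gadd45g in daily against weekly (0.54 in both settings) and Tk1 in daily against weekly (0.56 also without daily 3). Of the other single-gene values 4069 stayed on their side of the threshold, 165 gained and 102 lost a call. The 4069 include values that changed sign where neither fit made a call, such as Mcm2 in weekly against vehicle (-0.13 to 0.46 over the alternatives).

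Replicate numbers gave little sign of pairing the samples: of 15 same-number pairs 1 had a correlation of deviations over 0.1 (range -0.0293 to 0.146), and 4 of 30 best matches were to a library's own number. This check cannot exclude pairing, because the vehicle libraries varied little (biological coefficient of variation 3.55%). With the replicate number as a block, 0, 0 and 0 members were called with all libraries and 3, 3 and 8 without weekly 4. Depth limits single values: 17 of 35 members had under 10 reads in at least 1 library.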
